A study of Homo sapiens with 4 samples.

Results

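Glycogen, the branched storage polymer of glucose, is built and broken down by a small set of enzymes and their regulators, and 9 of these genes were described here among 19645 protein-coding genes. They were *PGM1*, *UGP2*, *GYG1*, *GYS1*, *GBE1*, *PYGL*, *PYGB*, *PPP1R3B* and *PPP1R3C*, taken by gene symbol from the expression tables and matched through Ensembl identifiers to the HIF1α peaks at or near them. All 9 were found in both kinds of data. The data came from HK2 cells, an immortalized line of human renal proximal tubule epithelium. All 4 libraries were of cells given 50 μM FG-4592 (roxadustat), a prolyl hydroxylase inhibitor that stabilizes HIF1α, for 6 h. There were 2 RNA-seq libraries, with levels in FPKM (fragments per kilobase of transcript, scaled to the mapped fragments of the library), and 2 HIF1α ChIP-seq peak lists made with a Novus antibody to HIF1α. One line under one condition is the limit of the model. Untreated cells were not analysed here, so every value is a level or a position under treatment and none is a change. The labels do not say whether the libraries of a pair came from separate cultures, so the SD of 2 values may be technical.

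In the glycogen pathway, glucose 6-phosphate is turned into glucose 1-phosphate and then UDP-glucose, glycogenin starts a chain, glycogen synthase lengthens it and the branching enzyme adds branches. Glycogen phosphorylase releases glucose 1-phosphate from the chain ends. Targeting subunits bring protein phosphatase 1 to the particle, where it switches synthase on and phosphorylase off. HIF1α is the oxygen-regulated transcription factor whose core recognition sequence, RCGTG, occurs in the regulatory regions of many metabolic genes.

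The ChIP replicates stood apart. The replicate 1 list held 1689 peaks and the replicate 2 list 16953. Exons held 32.9% of the bases in replicate 1 peaks and 84.5% of those in replicate 2 peaks. Of the replicate 1 peaks, 20.4% overlapped a replicate 2 peak, and of the replicate 2 peaks 1.96% overlapped one of replicate 1. Counts of genes with peaks are therefore given for replicate 1 alone, for replicate 2 alone and for both. The lists give positions without heights or summits, so a peak is placed by its centre.

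A promoter peak was a peak that touched the 1 kb on either side of any annotated start site of a gene. In replicate 1, promoter peaks were present at 5 of the 9 glycogen genes (55.6%), against 5.49% of all protein-coding genes and 8.60% of those with a mean FPKM of at least 1. These 5 were *GYS1*, *GBE1*, *PGM1*, *PPP1R3B* and *PPP1R3C*. Synthase and branching enzyme act in synthesis and *PGM1* in both directions, while the targeting subunits bear on both synthase and phosphorylase. Neither phosphorylase gene, nor *UGP2*, nor *GYG1* had one. In replicate 2, 5 of 9 again had a promoter peak, against 14.0% of all protein-coding genes and 20.0% of the expressed ones, but the genes were *PGM1*, *PPP1R3C*, *UGP2*, *PYGL* and *PYGB*. A promoter peak in both lists was found at 2 of 9 (22.2%), *PGM1* and *PPP1R3C*, against 1.79% of all and 2.87% of expressed protein-coding genes. The gene list was chosen with results of these data known, so these shares are descriptions.

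**Figure D1:**
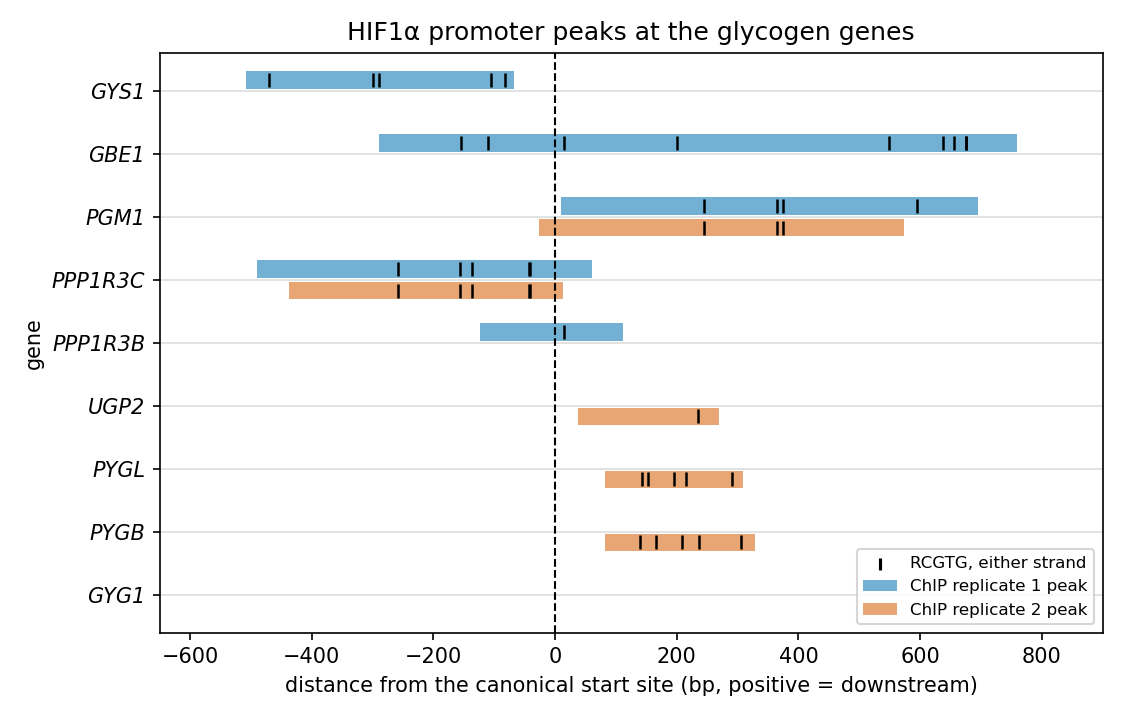
HIF1α promoter peaks at the 9 glycogen genes, drawn as distance in bp from the canonical start site (positive values lie downstream in the direction of the gene). Blue bars are replicate 1 peaks, orange bars replicate 2 peaks, and black ticks are RCGTG cores on either strand. The replicate 1 peaks at *GYS1* and *PPP1R3C* lie mostly upstream, the replicate 2 peaks at *UGP2*, *PYGL* and *PYGB* lie wholly downstream, and *GYG1* has neither.

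The core was searched as ACGTG or GCGTG on both strands, on the GRCh37 genome, the build of the peak lists. It lay within 100 bp of the centre of all 5 replicate 1 promoter peaks at the glycogen genes. The same was true of 92.1% of replicate 1 promoter peaks of protein-coding genes and of 86.0% of all replicate 1 peaks on chromosomes 1 to 22, X and Y, so the count is near what most peaks of that list show. All 5 replicate 2 promoter peaks at these genes also held the core in that window, against 33.9% of replicate 2 promoter peaks and 26.6% of all replicate 2 peaks. A match is a description of the letters and does not establish binding at that base.

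*PPP1R3C* encodes a targeting subunit of protein phosphatase 1 (protein targeting to glycogen) and was 1 of the 2 genes with a promoter peak in both lists, and the one with the smaller distance between the centres. Its replicate 1 peak spanned chr10:93392768-93393317 and its replicate 2 peak chr10:93392815-93393264 (GRCh37). The replicate 2 peak lay wholly inside the other, the 450 bp of overlap made up 81.8% of the replicate 1 peak, and the centres were 3 bp apart. The centres lay at −215 and −212 bp from the single annotated start site. Exons held 11.1% and 3.11% of the bases of these peaks, so replicate 2 here was not an exon peak. Both peaks held 5 cores, all ACGTG, of which 3 lay within 100 bp of the centre. The stretch that carries them, chr10:93392856-93393100 on the minus strand, is shown because it holds all 5 cores of both peaks. It is intergenic, is written 5′ to 3′ in the direction of the gene, and capitals mark the cores.
PPP1R3C upstream region: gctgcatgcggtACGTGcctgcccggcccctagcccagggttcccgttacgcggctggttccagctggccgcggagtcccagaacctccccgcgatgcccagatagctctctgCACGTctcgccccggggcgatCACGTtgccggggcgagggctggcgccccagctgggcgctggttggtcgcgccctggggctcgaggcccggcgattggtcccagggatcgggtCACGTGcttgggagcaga

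The last capital run in that stretch is the palindrome CACGTG, which counts as a core on each strand, and it lies at −42 bp from the start site. The RefSeq promoter of *PPP1R3C* (250 bases before to 50 after the start, GRCh38.p14) holds 4 cores, the most of the 11 promoter windows matched to 8 of the 9 genes. Of those 11 windows, 8 hold at least 1 core, against 48.4% of all RefSeq promoter windows of the same length.

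*PGM1* encodes phosphoglucomutase, which interconverts glucose 6-phosphate and glucose 1-phosphate and so serves both synthesis and breakdown. Its replicate 1 peak lay at chr1:64059091-64059776 and its replicate 2 peak at chr1:64059056-64059655. They overlapped by 565 bp, 82.4% of the first and 94.2% of the second, with centres 78 bp apart. Both centres were downstream of the canonical start, by 352 bp in replicate 1, in the first intron, and by 274 bp in replicate 2, in the first coding exon. The replicate 1 centre was 46 bp upstream of another annotated start of the gene. Exons of any gene covered 89.2% and 83.3% of the peaks. The peaks are shared with a neighbour on the other strand, *ITGB3BP*, which encodes a centromere protein and was named after its values were seen, with a start site 42 bp from the replicate 1 centre. The exon-free stretch inside the replicate 1 peak, chr1:64059406-64059479 on the plus strand, is shown for its pair of cores 13 and 22 bp from the centre.
PGM1 first intron: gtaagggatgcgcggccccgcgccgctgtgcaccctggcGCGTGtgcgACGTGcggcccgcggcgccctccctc

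*GYS1* encodes the glycogen synthase of muscle and most other tissues. Its replicate 1 peak, chr19:49496634-49497073, lay wholly upstream of the gene, with its centre at −288 bp from the canonical start. It was absent from replicate 2, whose nearest peak to any *GYS1* start site was 1178 bp from a start site inside the gene, and lay in the last exon. The peak is also the promoter peak of *RUVBL2*, which encodes an AAA+ ATPase, runs in the opposite direction and was named after its values were seen. A *RUVBL2* start site was 19 bp from the centre, nearer than that of *GYS1*, and the peak list alone does not assign the peak to either gene. The part of the peak between the genes, chr19:49496634-49496818 on the minus strand, holds 2 cores and is shown because every base lies outside annotated exons. The 29 bases at the peak centre, chr19:49496851-49496879, lie in the first exon of *RUVBL2* and hold 2 further cores, 2 and 11 bp from the centre.
GYS1 and RUVBL2 intergenic: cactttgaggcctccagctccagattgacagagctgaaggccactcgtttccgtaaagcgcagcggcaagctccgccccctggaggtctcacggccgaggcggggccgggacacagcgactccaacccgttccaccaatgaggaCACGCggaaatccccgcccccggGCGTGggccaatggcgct
GYS1 peak centre: tttgagtaaccaCACGTcctcCACGCtcc

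*GBE1* encodes the branching enzyme. Its replicate 1 peak was the widest of the 5, 1048 bp at chr3:81810037-81811084, and ran from the upstream region across the first exon into the first intron. Its centre was 235 bp downstream of the start site, in the first coding exon. Replicate 2 had no peak within 50 kb of the gene, and its nearest was 1045532 bp from the start site. The peak held 9 cores, 6 ACGTG and 3 GCGTG, but 1 of them lay within 100 bp of the centre. A cluster of 4 was found in the first intron, at chr3:81810106-81810172 on the minus strand, and 2 lay upstream at −110 and −154 bp from the start. The intron cluster is shown because it holds 4 of the 9 cores in 67 bases, and it includes a CACGTG palindrome.
GBE1 first intron: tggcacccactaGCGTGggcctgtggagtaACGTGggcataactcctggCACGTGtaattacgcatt

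The phosphorylases, which release glucose 1-phosphate, are *PYGL* (the liver form) and *PYGB* (the brain form). Neither had a promoter peak in replicate 1, whose nearest peaks were 151075 bp from a *PYGL* start site and 329620 bp from a *PYGB* start site. In replicate 2 both had a narrow peak inside the first exon, chr14:51410893-51411119 for *PYGL* (227 bp) and chr20:25228803-25229049 for *PYGB* (247 bp). The centres lay in coding sequence, 195 and 205 bp downstream of the start, and all bases of both peaks were exonic. The coding parts of these first exons are each 243 bases long and were identical at 208 of them (85.6%) when aligned without gaps from the start codon. Each holds 5 cores, 3 of them at the same place in both genes. Around these 3 shared cores, windows of 29 bases differ between the genes at 11 bases (core at coding base 71), 1 base (114) and 1 base (210). The windows at base 114 are shown, as 1 of the 2 closest pairs, chr14:51410992-51411020 on the minus strand and chr20:25228916-25228944 on the plus strand.
PYGL exon 1: gcacctgcacttCACGCtggtcaaggacc
PYGB exon 1: gcacttgcacttCACGCtggtcaaggacc

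These cores lie in coding sequence that the paralogues share, and the peaks holding them were seen in replicate 2 alone. The RefSeq promoter window of *PYGL* holds no core and that of *PYGB* holds 3, all GCGTG. No match says only that these letters are not in that window.

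*UGP2* encodes UDP-glucose pyrophosphorylase, which makes the sugar donor of glycogen synthase. It had a promoter peak in replicate 2 alone, at chr2:64069068-64069299, 232 bp wide and wholly exonic, with 1 core 81 bp from the centre. The nearest replicate 1 peak was 252157 bp from a start site. *GYG1* encodes glycogenin, the protein primer of the particle, and was without a promoter peak in either list. Its nearest replicate 1 peak was 216377 bp from a start site and its nearest replicate 2 peak 3747 bp. The RefSeq promoter of *GYG1* nevertheless holds 3 cores, as many as that of *GBE1*.

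Replicate 1 peaks within 50 kb of the glycogen genes were the 5 promoter peaks alone. Replicate 2 gave a further 14 peaks inside 7 of the genes and outside their promoter windows, and *GBE1* and *PYGL* had none. Such a peak was present in 32.8% of all protein-coding genes, 45.4% of those with a mean FPKM of at least 1 and 56.5% of those with at least 10, the range in which the 9 genes fall. The centre of all 14 lay in an exon of the canonical transcript, of 12 in the last exon and of 11 in the 3′ UTR, against 74.5%, 62.1% and 54.2% of such peaks over all protein-coding genes. The largest were a peak of 2136 bp in *PPP1R3C* and one of 1514 bp in *PYGB*. *PPP1R3B* had 5 such peaks along its last exon, the most of any of the genes. Of the 14, 6 held a core within 100 bp of the centre, against 24.0% over all protein-coding genes. Most bases of the replicate 2 list as a whole were exonic too. When peaks with any exon base were left out, none of the 9 genes kept a promoter peak in either list (0, against 5 in each), so that count does not separate the lists.

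**Figure D2:**
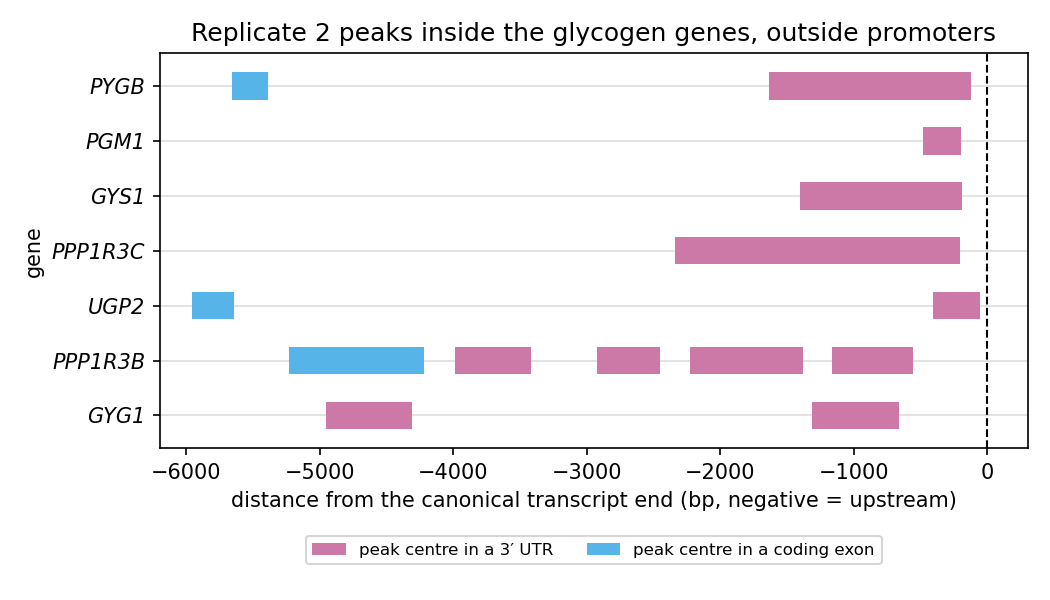
Replicate 2 peaks inside the glycogen genes and outside promoter windows, as distance in bp from the end of the canonical transcript (0, dashed line). Bars span the peaks, pink with the centre in a 3′ UTR and blue with the centre in a coding exon. Of the 14 peaks 11 are pink, and all lie within the last 6 kb of their gene.

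*PPP1R3B*, the targeting subunit first described in liver, had the narrowest of the replicate 1 promoter peaks, 234 bp. Its centre was at −6 bp from the canonical start site. The peak held 1 core, ACGTG, 21 bp from the centre. In replicate 2 the nearest peak to a start site was 9171 bp away, one of the 5 in the last exon. A second annotated start lies upstream, and both transcripts of the gene start within 1 kb of the replicate 1 peak.

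The glycogen genes were all transcribed at substantial levels. Mean FPKM reached 1 or more in each of the 9, against 59.7% of protein-coding genes, and each was above 10.8, the median of those expressed genes. Their means ran from 16.7 to 107 FPKM, with a median of 51.8, and their ranks among protein-coding genes from 452 to 4034. In these bulk libraries, fewer expressing cells and less RNA per cell cannot be told apart.

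Among the genes that supply the sugar donor, *PGM1* had an FPKM of 78.7 in library 1 and 75.5 in library 2 (77.1 ± 2.26, SD, n = 2). *UGP2* had 33.0 and 31.4 (32.2 ± 1.13). *PGM1* was thus 2.38 and 2.40 times *UGP2* in the 2 libraries. The size of this ratio depended on the transcripts summed, with 3.63 and 3.64 on coding transcripts (a sum added after the values were seen) and 3.57 and 2.60 on the largest transcript, and *PGM1* was the higher on each.

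Of the genes that build the chain, *GYS1* had an FPKM of 50.1 and 54.1 (52.1 ± 2.85). *GBE1* had 51.2 and 52.4 (51.8 ± 0.869), so synthase and branching enzyme overlapped on the sum over all transcripts. They lay apart with *GBE1* higher on coding transcripts, where the ratio of *GYS1* to *GBE1* was 0.940 and 0.905, and on the largest transcript, where it was 0.958 and 0.882. *GYG1* was the lowest of the 9 at 16.8 and 16.6 (16.7 ± 0.165). Synthase was 2.97 and 3.26 times its primer in FPKM.

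The phosphorylases were high. *PYGB* had an FPKM of 111 and 104 (107 ± 5.42), the highest of the 9, and *PYGL* had 65.1 and 60.6 (62.9 ± 3.18). In FPKM summed over all transcripts both phosphorylases exceeded synthase in each library, but for *PYGL* this did not hold on coding transcripts alone or on the largest transcript alone, as given below. *PYGB* was 1.71 times *PYGL* in both libraries on the same sum. The ratio was 2.68 and 2.28 on coding transcripts and 3.46 and 3.46 on the largest transcript, so its direction held while its size did not.

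The targeting subunits were close to each other in FPKM summed over all transcripts. *PPP1R3C* had an FPKM of 33.0 and 33.7 (33.4 ± 0.488) and *PPP1R3B* 31.0 and 30.5 (30.8 ± 0.355). Their values did not overlap, though the means differed by a factor of 1.08. On the largest transcript *PPP1R3C* was 1.43 and 1.37 times *PPP1R3B* in the 2 libraries.

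In order of level the genes were *PYGB*, *PGM1*, *PYGL*, *GYS1*, *GBE1*, *PPP1R3C*, *UGP2*, *PPP1R3B* and *GYG1*. The values of neighbours overlapped at *GYS1* and *GBE1* and at *PPP1R3C* and *UGP2*, and lay apart at the other 6 steps, narrowly at *UGP2* over *PPP1R3B*. With 2 libraries no test was made. The order depended on the transcripts counted. With the largest transcript alone it was *PYGB*, *PGM1*, *GBE1*, *GYS1*, *PPP1R3C*, *PYGL*, *PPP1R3B*, *UGP2* and *GYG1*, with *PYGL* at rank 6 in place of 3 and *PGM1* (48.8) level with *GBE1* (48.6). The 5 genes with a replicate 1 promoter peak stood at ranks 2, 4, 5, 6 and 8 of the 9, the 5 with a replicate 2 promoter peak at ranks 1, 2, 3, 6 and 7, and the 2 with both at ranks 2 and 6. The highest, *PYGB*, was thus among the genes of replicate 2 and not among those of replicate 1.

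**Figure D3:**
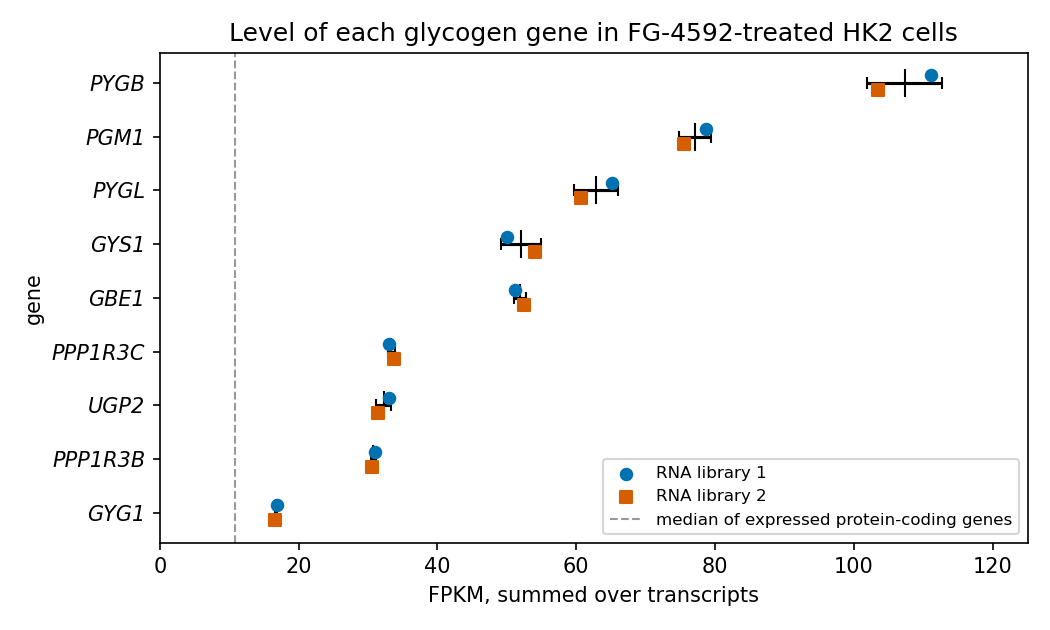
FPKM of the 9 glycogen genes, ordered by mean. Blue circles are RNA library 1, orange squares RNA library 2, and black marks the mean with 1 SD. The dashed line is the median of expressed protein-coding genes (10.8), and every point lies to its right, from 16.6 for *GYG1* to 111 for *PYGB*.

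The 2 RNA libraries were close for these genes. The SD was between 0.984% and 5.48% of the mean. The log2 ratio of library 2 to library 1, with 1 added to each FPKM, was largest in size for *GYS1* (0.11) and lowest for *PYGB* and *PYGL* (−0.10 each). The median size over the 9 was 0.06, against 0.12 over expressed protein-coding genes. Those expressed genes had a median of 10.8 FPKM, below the lowest of the 9 (16.7), so these medians were not matched for level. Mean coverage of the genes, summed over their transcripts, ran from 86.5 to 614 reads per base, so sampling of reads was not thin for any of them.

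How a gene's FPKM was divided among its transcripts was less even than the gene totals. These shares are StringTie estimates from short reads. *PPP1R3C* has 1 annotated transcript. *PYGB* and *GBE1* were carried almost wholly by 1 transcript, with 97.2% and 97.7% of *PYGB* and 93.2% and 94.4% of *GBE1* in the 2 libraries. *GYG1* had 79.3% and 87.9% in its largest transcript, and *GYS1* 91.3% and 80.7%.

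*PGM1* was divided mainly between 2 start sites. The transcript that begins at the peak, ENST00000371084, had an FPKM of 54.9 and 42.6, and ENST00000371083, which begins downstream at position 64088764, had 21.6 and 31.4. The second made up 27.4% of the gene in library 1 and 41.6% in library 2, a wider gap than that of the gene total. Transcripts that start within 1 kb of the replicate 1 peak carried 72.2% and 57.9% of *PGM1*. Neither list had a promoter peak at the downstream start. The RefSeq promoter window of the start of ENST00000371084 holds no core. Nor does the window nearest the downstream start, which belongs to a RefSeq start at a slightly different position. The 3 cores of *PGM1* windows lie in the window of another start near the peak, whose transcript had a mean of 1.51 FPKM. *PGM1* shares 197 exon bases with *ITGB3BP* (15.1 FPKM) on the opposite strand, 7.97% of its largest transcript, and whether reads were counted by strand is not given in the sources used here.

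*PYGL* was spread over several transcripts. Its largest, ENST00000216392, had an FPKM of 31.2 and 29.2, which was 48.0% and 48.2% of the gene. The next, ENST00000530336, is annotated as a retained intron and had 22.2 and 13.7. A coding transcript, ENST00000532462, was listed at 0 in library 1 and had an FPKM of 7.30 in library 2. Transcripts annotated as coding summed to 40.5 and 44.7 FPKM, 62.2% and 73.7% of *PYGL*. The *GYS1* coding sum was 46.8 and 45.6, so on coding transcripts alone *PYGL* lay below *GYS1* and their order reversed.

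*UGP2* has 32 annotated transcripts. The largest, ENST00000467648, had an FPKM of 15.4 and 16.4, 46.6% and 52.1% of the gene. The next, ENST00000487469, has no defined coding sequence and had 10.0 and 8.54. Coding transcripts made up 65.4% and 65.6%. The largest transcript begins at position 64068103, ahead of the replicate 2 peak, and the MANE transcript (the agreed reference transcript), whose first exon holds the centre of that peak, had an FPKM of 1.15 and 1.17. Counted by the 1 kb rule, transcripts that start near the peak nevertheless carried 98.5% and 97.6% of *UGP2*.

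*PPP1R3B* was divided between its start sites, 23.1 and 24.6 FPKM from the canonical start at the peak and 7.95 and 5.93 from the one upstream. For *GYS1* and *GBE1*, transcripts starting within 1 kb of the replicate 1 peak carried 95.5% and 93.8% of the gene and 93.2% and 94.4%. At the replicate 2 peaks the shares were 96.2% and 96.3% for *PYGL* and 97.2% and 97.7% for *PYGB*. With the largest transcript alone in place of the sum, *PGM1* fell to a mean of 48.8 FPKM, *PYGL* to 30.2 and *UGP2* to 15.9, each by a factor above 1.5.

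**Figure D4:**
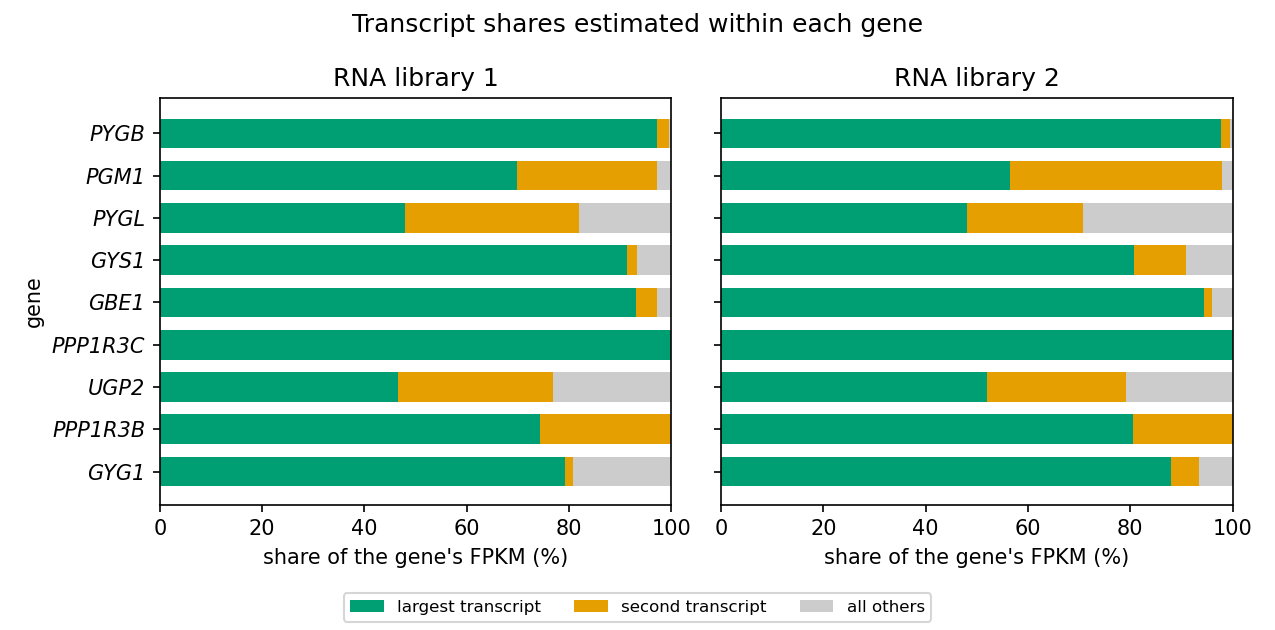
Share of each gene's FPKM held by its largest transcript (green), its second (orange) and all others (grey), in percent, for RNA library 1 (left) and 2 (right). *PYGL* and *UGP2* hold about equal parts in and outside their largest transcript, and the second *PGM1* transcript goes from 27.4% in library 1 to 41.6% in library 2.

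The wider glycogen list held 37 genes, 28 of them outside the 9. Of these 28, 22 had a mean FPKM of at least 1 and 12 of at least 10, with a median of 6.47 FPKM. Promoter peaks were present at 4 of 28 in replicate 1 (14.3%), 5 in replicate 2 (17.9%) and 2 in both (7.14%). The shares were 5.49%, 14.0% and 1.79% among all protein-coding genes and 8.60%, 20.0% and 2.87% among the expressed ones, so in replicate 2 the 28 lay between these backgrounds.

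Among the targeting subunits, promoter peaks were present at 4 of 7 in replicate 1, 3 of 7 in replicate 2 and 3 of 7 in both. The shares over all protein-coding genes were 5.49%, 14.0% and 1.79%. Beside *PPP1R3B* and *PPP1R3C*, already counted above, the replicate 1 genes were *PPP1R3G* (7.79 FPKM) and *PPP1R3E* (6.20 FPKM). Both of these also had a promoter peak in replicate 2. The *PPP1R3E* peak lay within 1 kb of a start site of *BCL2L2*, an apoptosis regulator named after its values were seen. It held no core within 100 bp of its centre in replicate 1, and 1 core in that window in replicate 2. The muscle subunit *PPP1R3A* was listed at 0 in both libraries. The catalytic subunits that these proteins bring to glycogen were more abundant, *PPP1CA* at 67.8, *PPP1CC* at 46.2 and *PPP1CB* at 39.2 FPKM, of which *PPP1CB* had a promoter peak in replicate 1 alone, with 2 cores near its centre, and *PPP1CA* in replicate 2 alone, with none.

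Some tissue isoforms were low, though *PYGL* and *PYGB*, the liver and brain forms of phosphorylase, were not. Liver synthase *GYS2* was at 0.0329 FPKM and muscle phosphorylase *PYGM* at 0.0934, against 52.1 for *GYS1* and 107 for *PYGB*. The second glycogenin gene, *GYG2*, was at 3.05. *PGM2*, a related mutase, was at 23.1 and had a promoter peak in replicate 1 alone, centred at −807 bp from its start. The liver and kidney glucose 6-phosphatase *G6PC1*, which frees glucose for export, was listed at 0, while the widely expressed *G6PC3* was at 33.6.

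Of the breakdown genes outside the 9, lysosomal acid glucosidase *GAA* was at 33.7 FPKM. It had a promoter peak in replicate 2 alone, as did *PYGL* and *PYGB*. The *GAA* peak differed from theirs, with no exon base and no core within 100 bp of its centre. Phosphorylase kinase, which activates phosphorylase, had *PHKB* at 14.3, *PHKA2* at 14.0 and *PHKG2* at 12.6 and no promoter peak in either list at any of its 5 subunits. The kinases *GSK3A* and *GSK3B*, which phosphorylate synthase, were at 18.3 and 15.9, and the glycogen-binding protein *STBD1* at 16.5. A promoter peak was present at *GSK3A* in replicate 2 alone, wholly exonic and without a core within 100 bp of its centre.

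**Figure D5:**
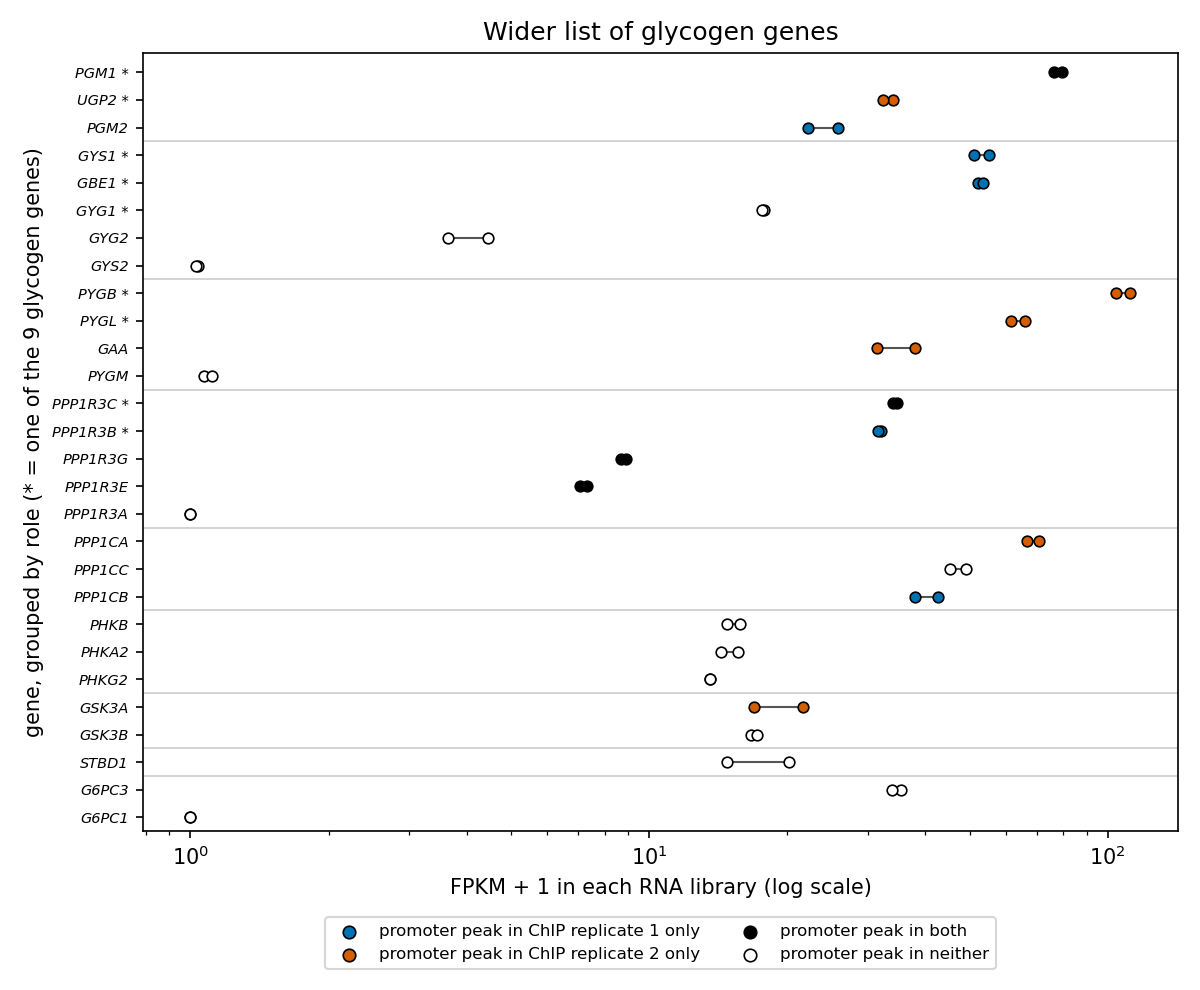
FPKM + 1 of the named genes of the wider glycogen list in each RNA library, on a log scale, grouped by role with grey lines between the groups. Point colour gives the ChIP list with a promoter peak (blue, replicate 1 alone; orange, replicate 2 alone; black, both; white, neither), and asterisks mark the 9 glycogen genes. The 3 targeting subunits *PPP1R3C*, *PPP1R3G* and *PPP1R3E* are black, and *PYGL* and *PYGB* are orange.

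For comparison, replicate 1 promoter peaks were found at 12 of 15 glycolysis genes (80.0%), replicate 2 peaks at 10 and both at 10, with a median level of 513 FPKM. The 9 glycogen genes together summed to 470.2 and 458 FPKM in the 2 libraries, 0.130% and 0.127% of all FPKM.

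Markers of the labelled cell type were mostly low. Of 11 proximal tubule markers, 3 had a mean FPKM of at least 1, *PAX8* (121 and 114), *GGT1* and *SLC5A2*, and the list summed to 186 and 175 FPKM. The endocytic receptor *LRP2* and the transcription factor *HNF4A* were listed at 0 in both libraries, and *CUBN* was at 0.0592. Of 5 epithelial markers 4 were at 1 or above, led by *KRT19* (184 and 177), with *CDH1* at 0.295. The 3 endothelial markers summed to 0.0254 and 0 FPKM. Of the 3 leukocyte markers *CD68* was at 33.6 and 31.5, and *PTPRC* and *CD3E* were listed at 0. The 5 liver and muscle markers summed to 0.0949 and 0.0635. The glycogen genes were thus measured in epithelial cells with few of the defining genes of the proximal tubule.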

How the data were processed

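RNA-seq of 2 libraries and HIF1α ChIP-seq of 2 were used. The submitters' processing notes name cutadapt, Bowtie2, MACS2, HISAT2 and StringTie. The authors deposited coverage, FPKM and TPM per transcript from StringTie 1.3.3 on GENCODE 27 (GRCh38), and peak positions on hg19, listed for each replicate. No peak score and no read count was used here. The level of a gene was the sum of FPKM over its transcripts, and 1 was added before a log2 ratio. Depth, as coverage times transcript length, was 4442 and 4202 Mb for RNA. The depth of the ChIP libraries is unknown. Peaks were compared with GRCh37 and GENCODE 44 mapped to it, and joined to expression by Ensembl identifier, with no conversion of positions. Sequences came from GRCh37 and RefSeq promoters (GRCh38.p14) and were read with pysam 0.24.0 and samtools 1.23.1. Work was done in Python 3.11.15 with numpy 2.4.6, pandas 2.3.3 and matplotlib 3.10.9, and the functions were checked on simulated data. The genes named beyond the 9 were those of the wider list with a mean FPKM of at least 10, a replicate 1 promoter peak or a role as tissue isoform, and the cell type markers. The members and lists were chosen with earlier results of these data known. With 1 condition and 2 libraries, no test was made.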

Additional observations from a re-analysis of the deposited data

How the results depend on the processing

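All 9 genes passed the threshold for expression at 0.5 and 5 FPKM as at 1, with the largest transcript alone and in either library. TPM (FPKM times 1 constant per library) left the order within each library as it was by construction, and the order of the means was also the same. With 0.1 in place of 1 added to FPKM, the signs of the log2 ratios stayed as they were by construction. The log2 ratios were not taken in TPM. With 2 libraries, the value left after dropping one always lies within 1 SD of the mean, so that check adds nothing on stability. With the largest transcript alone the mean FPKM was 44.7 for *GYS1*, 48.6 for *GBE1*, 48.8 for *PGM1*, 15.9 for *UGP2*, 23.8 for *PPP1R3B*, 30.2 for *PYGL* and 14.0 for *GYG1*, since fewer transcripts are summed, and the order of the genes changed. With coding transcripts alone, chosen after seeing the data, it was 46.2 for *GYS1*, 50.1 for *GBE1*, 21.1 for *UGP2*, 42.6 for *PYGL* and 16.3 for *GYG1*, for the same reason, and within 1 SD for the other 4.

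Replicate 1 promoter peaks were found at 5 genes with windows of 0.5, 3 and 10 kb, the first start site alone and centres inside the window. With 10 kb the count was 8 in replicate 2 and 4 in both. The share over all protein-coding genes was not taken at 10 kb, so these counts have no background to be read against. Among peaks without an exon base it was 0 in each replicate. Without ChIP replicate 1 or without ChIP replicate 2 the count for both became 5 and 5, by construction. With GCGTG alone, an alternative chosen after seeing the data, 2 genes held a core near the replicate 1 centre. No paired analysis was possible because the results come from no test and the ChIP and RNA libraries share only numbers.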
